A study of Mus musculus with 16 samples.

Results

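A set of 37 genes best known from endothelium, the cell layer that lines blood vessels, was followed through 16 RNA sequencing libraries of sorted mouse neutrophils. The genes are a fixed list of symbols, and all 37 were found among the 49585 gene identifiers of the deposited count tables. They comprise 3 receptors for vascular endothelial growth factors, 3 genes of the Tie receptor system, 9 junction and surface proteins, 3 sinusoid and scavenger receptors, 4 transcription factors, 7 other signalling genes and 8 secreted, matrix-bound or enzyme genes. Of these, 14 have endothelium as their main known source (Cdh5, Kdr, Flt4, Emcn, Cldn5, Plvap, Stab2, Ptprb, Robo4, Sox17, Sox18, Mmrn2, Ecscr and Clec14a) and are called endothelial-defining below. Another 12 are also known in blood cells (Pecam1, Eng, Stab1, Vwf, Esam, Myct1, Erg, Egfl7, Tek, Tie1, Lyve1 and Flt1).

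Bone marrow is crossed by wide, thin-walled sinusoids through which mature neutrophils pass into the blood, and sinusoidal endothelium carries the growth factor receptors Kdr and Flt4, the adhesion molecule Cdh5 and the scavenger receptors Stab1 and Stab2. Vascular endothelial growth factors drive the growth of vessels through Kdr and Flt4, with Flt1 acting largely as a decoy, and angiopoietins keep vessels stable through Tek, which the phosphatase Ptprb holds in check. Several of these genes, among them the VEGF receptors and Tek, are known targets of hypoxia-inducible factors in endothelium.

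The libraries came from the bones of C57BL/6 mice aged 8 to 12 weeks, with 4 libraries in each of 4 groups. Those labelled P2KO came from mice with floxed PHD2 alleles and Vav:cre, and those labelled P2H2KO from mice with floxed PHD2 and HIF2 alleles and the same cre, while P2WT and P2H2WT are the wild types of the 2 lines. The Vav promoter drives the recombinase in blood-forming cells and, in several strains, also in part of the endothelium, and whether the wild types carried it is not given in the sources used here. PHD2 is the oxygen-dependent hydroxylase that marks hypoxia-inducible factors for degradation, and HIF2 is one of those factors, so the design asks what each deficiency does to the transcripts of neutrophils. Nothing in the labels says that the libraries of a group came from separate animals, so p-values measure the spread between these libraries.

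Total counts ran from 23450746 to 28601284 per library, and the 37 genes held between 0.0192% and 0.056% of them. The libraries are named by the number in their titles, which are 10, 3, 4 and 7 for P2WT, 1, 5, 6 and 9 for P2KO, 13, 14, 16 and 18 for P2H2WT and 11, 12, 15 and 17 for P2H2KO, and values per library are given in that order throughout. Titles also end in m or f. Replicate 9 is the only P2KO library with f, and the f libraries of the other groups are P2WT 10 and 7, P2H2WT 16, and P2H2KO 15 and 17. Levels are given as CPM, which are counts per 1000000 counts of a library after TMM scaling. The targeted genes did not separate KO from wild type within either line. Egln1, which encodes PHD2, reached 48.6 ± 2.21 CPM in P2WT and 49.5 ± 6.39 CPM in P2KO (mean ± SD, n = 4; two-sided exact permutation test, p 0.857). In P2H2WT it reached 52.2 ± 2.97 CPM, next to 53.1 ± 4.39 CPM in P2H2KO (p 0.771 by the same exact test). Epas1, which encodes HIF2α and is itself abundant in endothelium, averaged 3.55 ± 1.02 CPM in P2H2WT, against 5.65 ± 2.17 CPM in P2H2KO (p 0.171 by the exact test). It averaged 10.02 ± 1.40 CPM in P2WT and 12.3 ± 8.21 CPM in P2KO (p 0.914 by the exact test). Its highest library was P2KO replicate 9, at 24.4 CPM. Between the wild types Epas1 was higher in P2WT (p 0.0286 by the exact test, the smallest value that test can give). These counts cover all exons of a gene, and which exons were floxed is not given in the sources used here, so KO below means the libraries labelled so. Neutrophil genes were high everywhere, with S100a8 between 5241 and 14630 CPM and Ly6g between 84.3 and 269 CPM, and markers of other cell types were present too, as given with the results.

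The 37 genes were low in all libraries. Of them, 34 had at least 1 count in every library and 25 had at least 10, and the only ones with 0 counts anywhere were Ecscr, Sox7 and Sox17, each in libraries of the P2H2 line only. In that line 3 counts correspond to between 0.107 and 0.135 CPM. That limit covers counting error only. Exons of Sox17 (804 bases), Egfl7 (459), Dll4 (214), Nid1 (143), Stab2 (141) and Stab1 (112) overlap other annotated genes, and as strand use is not given, reads there cannot be told apart. Summed per library, the genes reached 299.8 ± 19.5 CPM in P2WT, 346 ± 121 CPM in P2KO, 203 ± 6.97 CPM in P2H2WT and 232 ± 18.9 CPM in P2H2KO (mean ± SD over 4 libraries each). Most of that sum came from genes also known in blood cells, while the 14 endothelial-defining genes summed to 71.5 ± 4.98, 89.2 ± 50.5, 28.6 ± 2.0 and 35.8 ± 9.57 CPM in the same order. Corrected for exon length, the highest mean levels over all libraries were those of Eng (9.27 CPM per kb), Erg (8.16), Pecam1 (7.09), Plvap (3.69), Adgrl4 (3.12) and Cdh5 (3.04). The lowest were Nos3 (0.0494 CPM per kb), Sox7 (0.0291) and Sox17 (0.0173). In a bulk library, fewer cells of a type and less RNA per cell cannot be told apart.

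**Figure D1:**
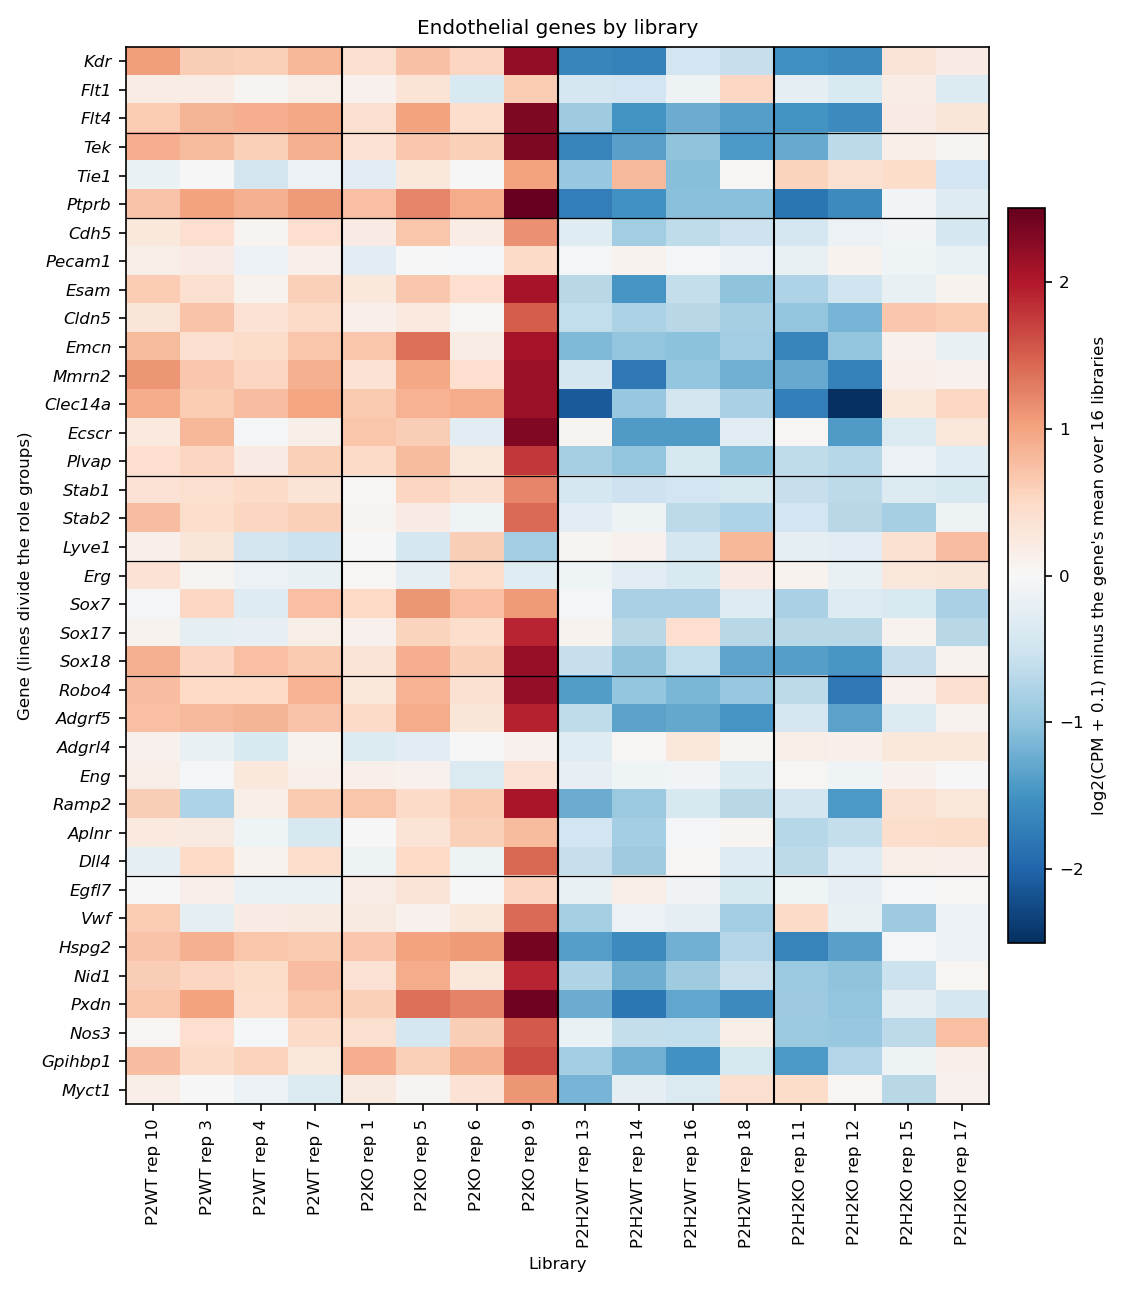
Levels of the 37 genes in the 16 libraries as log2(CPM + 0.1) minus the mean of the gene over the libraries, with red above and blue below that mean. Rows are genes in their role groups and columns are libraries. For 18 of the 37 genes each of the 8 columns of the P2 line on the left is higher than each of the 8 of the P2H2 line, and the column of P2KO replicate 9 is the darkest red for 33 of the 37 genes.

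The wild types of the lines were compared first. Between the wild types, 20 of the 32 genes tested were higher in P2WT and none was lower, at an adjusted p under 0.05 in edgeR's quasi-likelihood test, whereas 1.22% of all 13593 genes tested were called, 1.09% as higher in P2WT. At an unadjusted p under 0.05 were 23 of the 32, all higher in P2WT, with 11.4% of all genes at that level and 7.71% higher. The log2 fold change was positive for 29 (46.6% of all genes) and had a median of 1.28, with a range of -0.32 to 2.57, against a median of -0.012 for all genes. Endothelial genes were first listed for this series after genes that differed between these wild types had been seen, so this count is not independent evidence of its direction. Of the genes called, Pxdn, Clec14a, Gpihbp1, Emcn and Sox18 passed the low-count filter only through P2WT. Emcn (10, 10, 10 and 11 counts) and Sox18 (19, 12, 17 and 9 counts) were close to that filter in P2H2WT. Pxdn, Clec14a and Gpihbp1 were too low to be tested in P2H2KO against P2H2WT. The 14 endothelial-defining genes summed to 2.498 times as much in P2WT as in P2H2WT, and the 12 genes known in blood cells to 1.24 times as much. All 12 endothelial-defining genes that were tested were called, against 3 of the 12 genes known in blood cells (Tek, Esam and Stab1). The endothelial-defining genes called include Clec14a, Emcn and Sox18, which were tested only through P2WT. Both of these lists were also drawn with earlier results of these data known. Robo4, counted as endothelial-defining, also marks stem cells. A fit of all 16 libraries, whose estimate of spread takes in the deficient groups, called 3 of the genes (Ptprb, Pxdn and Adgrf5), next to 0.227% of all genes. Leaving out 1 wild-type library left 16 to 19 called, next to 0.553% to 1.21% of all genes. The groups did not overlap for 21 of the 37 genes, all higher in P2WT, which held for 5.18% of all genes tested.

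Between the deficient libraries of the lines most estimates were positive too. None of the 33 genes tested was called in P2KO against P2H2KO by edgeR, where 0.279% of all 13610 genes were called and 0.176% as higher in P2KO, and 22 had an unadjusted p under 0.05, which 10.7% of all genes had. Of these, 21 were higher in P2KO (5.6% of all genes) and 1, Adgrl4, was lower. Among the 21, Ramp2, Pxdn, Gpihbp1, Clec14a, Emcn, Sox18 and Robo4 passed the low-count filter only through P2KO. The log2 fold change was positive for 30 genes (45.7% of all genes), and its median was 1.37, and 0.82 without P2KO replicate 9, with 16 genes at an unadjusted p under 0.05 then (6.63% of all genes). DESeq2 called 11 of the 33 genes, where it called 1.87% of all genes. A fit with the m or f suffix as a covariate called 19 (1.1% of all genes), and a fit of all 16 libraries called 10 (0.923% of all genes). Each of these calls of endothelial genes was higher in P2KO. Replicate 9 is the only P2KO library with f, so within P2KO the suffix and that library cannot be told apart in the suffix fit. The groups did not overlap for 22 genes, 21 of them higher in P2KO (4.34% of all genes tested). Those 21 include Sox7 and Sox17, which were too low to be tested. Over both genotypes, all 8 libraries of the P2 line lay above all 8 of the P2H2 line for 18 of the 37 genes and for 1.24% of all genes. The lines were deposited as separate tables with separate title numbers, so line, table and any difference in handling between them cannot be told apart.

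**Figure D2:**
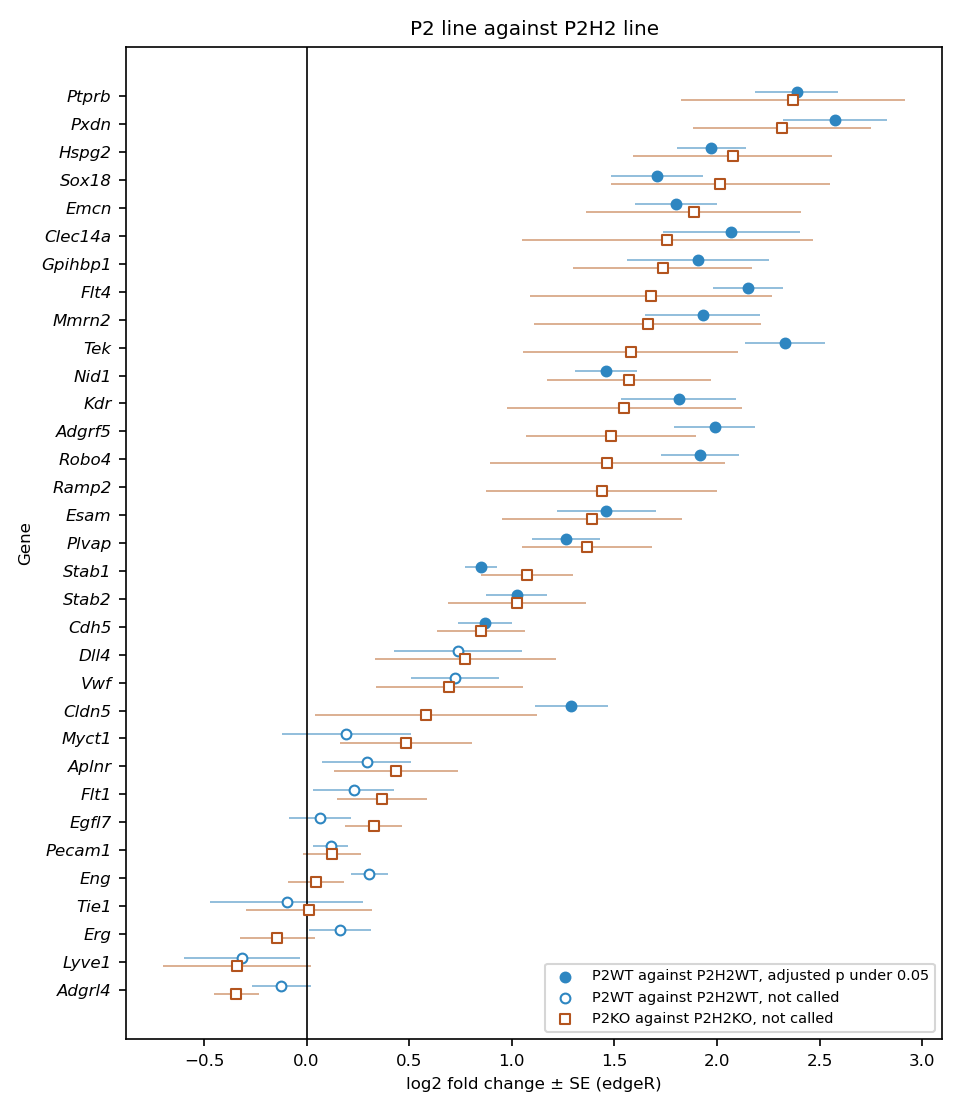
Log2 fold change of each tested gene between the lines, with bars of ± 1 SE from edgeR, for P2WT against P2H2WT (blue circles, filled where the adjusted p is under 0.05) and for P2KO against P2H2KO (brown squares, none called). The 20 filled circles lie between 0.85 and 2.57, and only Adgrl4, Lyve1, Erg and Tie1 lie below 0 in one or both comparisons.

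Sequence before the starts of these genes is shown because many of them were high in the same libraries. RefSeq promoter windows (build GRCm38.p6, the 250 bases before a start) matched 21 of the 37 genes with 26 windows. ETS factors, among them Erg, are major regulators of endothelial genes, and the core CAGGAA was present on either strand in 53.8% of the 26 windows and in 25.7% of all 32851 windows of that length. CCGGAA, the other ETS core searched, was in 11.5% of the 26 and in 12% of all. The remaining letters searched on both strands were ACAAT, a core read by SOX factors (19.2% against 27.7%), ACGTG, the core read by hypoxia-inducible factors (11.5% against 16.6%), and AGATAA, read by GATA factors (7.69% against 9.99%). The windows of the 37 genes had a median GC content of 57.6% against 52.4% over all. A match is only a match of letters. Among genes called between the wild types, the windows of Flt4, Hspg2, Pxdn and Cldn5 hold neither ETS core. CAGGAA is in windows of Adgrf5, Clec14a, Robo4, Stab1 and Stab2, and the window of Nid1 holds both cores. The windows of 3 further called genes, each with an ETS core, are printed from 5′ to 3′ on the strand of the gene. Both ETS cores, or their reverse complements TTCCTG and TTCCGG, are in capitals.
Tek, chr4:94739039-94739288, plus strand: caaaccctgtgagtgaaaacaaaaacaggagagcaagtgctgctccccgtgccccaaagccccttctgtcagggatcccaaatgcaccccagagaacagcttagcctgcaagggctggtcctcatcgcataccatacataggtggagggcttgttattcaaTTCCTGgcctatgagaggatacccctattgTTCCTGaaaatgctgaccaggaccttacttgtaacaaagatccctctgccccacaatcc
Kdr, chr5:75978456-75978705, minus strand: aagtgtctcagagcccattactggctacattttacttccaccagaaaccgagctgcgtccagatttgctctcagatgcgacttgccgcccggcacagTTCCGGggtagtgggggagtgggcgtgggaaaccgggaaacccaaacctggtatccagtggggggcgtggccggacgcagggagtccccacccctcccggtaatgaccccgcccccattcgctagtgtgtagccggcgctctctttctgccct
Emcn, chr3:137340828-137341077, plus strand: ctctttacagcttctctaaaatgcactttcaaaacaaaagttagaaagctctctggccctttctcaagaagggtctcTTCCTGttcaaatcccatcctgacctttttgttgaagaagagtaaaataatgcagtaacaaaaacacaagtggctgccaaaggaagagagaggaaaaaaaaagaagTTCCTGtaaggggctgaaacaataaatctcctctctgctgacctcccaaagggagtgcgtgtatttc
Tek and Emcn each hold TTCCTG in 2 places, and Kdr holds TTCCGG in 1. None of the 3 windows holds ACGTG, and ACAAT or its complement is in those of Tek (2 matches) and Emcn (1 match).

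Of the receptors for vascular endothelial growth factors, Kdr and Flt4 were higher in P2WT than in P2H2WT, and Flt1 was not called. Kdr (chromosome 5, 75932827 to 75978458, minus strand), the main signalling receptor for VEGF-A, was at 9.33, 6.87, 6.75 and 7.98 CPM in P2WT and 5.92, 7.42, 6.52 and 21.2 CPM in P2KO. Kdr reached 1.36, 1.31, 3.17 and 2.95 CPM in P2H2WT and 1.47, 1.41, 5.60 and 5.14 CPM in P2H2KO. Every P2 library was above every P2H2 library, and the wild types differed by 1.81 ± 0.28 on the log2 scale (estimate ± SE; adjusted p 0.0144 in edgeR). Without P2WT replicate 10 that adjusted p was 0.0581. Flt4 (chromosome 11, 49609263 to 49652739, plus strand), the receptor for VEGF-C and VEGF-D on lymphatic and sinusoidal endothelium, was at 4.503, 5.26, 5.497 and 5.73 CPM in P2WT and 3.82, 5.901, 3.95 and 14.96 CPM in P2KO. In P2H2WT it was at 1.502, 0.956, 1.16 and 1.05 CPM, and in P2H2KO at 0.951, 0.886, 3.302 and 3.56 CPM. The lines again did not overlap, and the wild types differed by 2.15 ± 0.17 on the log2 scale (adjusted p 0.000886). Flt1 (chromosome 5, 147561604 to 147726011, minus strand), the decoy receptor that monocytes also express, was at 8.61, 8.56, 7.96 and 8.41 CPM in P2WT and 8.13, 9.63, 5.77 and 11.7 CPM in P2KO. Flt1 in the P2H2 line was at 5.58, 5.38, 6.88 and 10.8 CPM in P2H2WT and 6.31, 5.799, 8.62 and 5.95 CPM in P2H2KO. These ranges overlapped, with a wild-type difference of 0.23 ± 0.20 (adjusted p 0.719). Kdr, Flt4 and Flt1 differed by 1.55 ± 0.57, 1.68 ± 0.59 and 0.37 ± 0.22 between the deficient groups, none of them called in that fit. With the m or f suffix as a covariate, Kdr differed by 2.07 (adjusted p 0.000543 in edgeR) and Flt4 by 2.19 (adjusted p 0.00265), while Flt1 was still not called.

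The Tie receptor system divided in the same manner. Tek (chromosome 4, 94739289 to 94874976, plus strand), the angiopoietin receptor, was at 3.06, 2.82, 2.47 and 3.04 CPM in P2WT and 2.06, 2.59, 2.45 and 8.44 CPM in P2KO. Tek was at 0.429, 0.557, 0.735 and 0.525 CPM in P2H2WT and at 0.605, 0.967, 1.79 and 1.67 CPM in P2H2KO. No P2H2 library reached any P2 library, and the wild types differed by 2.33 ± 0.19 (adjusted p 0.000957), a fold of 5.03. Ptprb (chromosome 10, 116275523 to 116389535, plus strand), the vascular phosphatase that removes phosphate from Tek and from VE-cadherin, was at 2.99, 3.68, 3.395 and 3.83 CPM in P2WT and 3.05, 4.28, 3.48 and 10.9 CPM in P2KO. Ptprb stood at 0.465, 0.557, 0.812 and 0.807 CPM in P2H2WT and 0.432, 0.523, 1.69 and 1.397 CPM in P2H2KO. It too separated the lines completely, with a wild-type difference of 2.39 ± 0.20 (adjusted p 0.000957) that was also called in the fit of all 16 libraries. Tie1 (chromosome 4, 118471191 to 118490061, minus strand), the partner receptor of Tek that megakaryocytes and stem cells also make, was at 4.83, 5.52, 3.92 and 4.94 CPM in P2WT and 4.49, 6.59, 5.49 and 10.97 CPM in P2KO. The P2H2 line gave 2.79, 9.68, 2.55 and 5.53 CPM in P2H2WT, the widest spread of the 4 groups, and 8.04, 7.13, 7.57 and 3.88 CPM in P2H2KO. Tie1 did not order the lines, and its wild-type difference of -0.10 ± 0.37 turned to 0.41 without P2H2WT replicate 14. Between the deficient groups the differences were 1.58 ± 0.52 for Tek, 2.37 ± 0.55 for Ptprb and 0.012 ± 0.31 for Tie1.

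Among the 9 junction and surface proteins, 7 of the 8 tested were higher in P2WT than in P2H2WT, and Pecam1 was the exception. Cdh5 (chromosome 8, 104101625 to 104144511, plus strand) encodes VE-cadherin, the adhesion molecule of endothelial junctions. It was at 14.3, 15.99, 12.5 and 16.1 CPM in P2WT and 13.9, 19.3, 13.6 and 26.6 CPM in P2KO. Cdh5 in the other line was at 9.69, 6.49, 7.696 and 8.28 CPM in P2H2WT and 8.78, 10.8, 11.3 and 8.83 CPM in P2H2KO. The lines did not overlap, and the wild types differed by 0.87 ± 0.13 (adjusted p 0.0138, and 0.0559 without P2WT replicate 3). Emcn (chromosome 3, 137341067 to 137432185, plus strand), the sialomucin of sinusoids and venous capillaries, was at 1.62, 1.201, 1.25 and 1.501 CPM in P2WT and 1.51, 2.45, 1.03 and 4.07 CPM in P2KO. Emcn was at 0.358, 0.398, 0.387 and 0.444 CPM in P2H2WT and 0.216, 0.403, 0.969 and 0.766 CPM in P2H2KO. These libraries too fell into 2 separate ranges by line, with a wild-type difference of 1.80 ± 0.20 (adjusted p 0.00327). Pecam1 (chromosome 11, 106654217 to 106750628, minus strand), which neutrophils, platelets and endothelium all carry, was at 48.6, 50.6, 39.4 and 47.5 CPM in P2WT and 36.3, 43.9, 42.7 and 60.7 CPM in P2KO. Pecam1 stood at 42.5, 46.3, 42.7 and 39.6 CPM in P2H2WT and 38.5, 46.7, 40.8 and 39.1 CPM in P2H2KO. Its groups overlapped, and its wild-type difference was 0.12 ± 0.087 (adjusted p 0.664). Clec14a, a lectin that binds the matrix protein Mmrn2, averaged 1.48 ± 0.172 CPM in P2WT and 0.353 ± 0.181 CPM in P2H2WT, a called difference of 2.07. Mmrn2 itself averaged 3.45 ± 0.610 and 0.892 ± 0.384 CPM (1.93, called). The tight-junction protein Cldn5 was at 1.85 ± 0.264 and 0.750 ± 0.0605 CPM (1.29, called), and Esam, a junction protein that platelets share, at 1.95 ± 0.337 and 0.699 ± 0.202 CPM (1.46, called). Plvap, which forms the diaphragms of fenestrated vessels, was at 8.701 ± 1.004 and 3.61 ± 0.821 CPM (1.26, called), the most abundant per kb of the endothelial-defining genes. Esam and Clec14a kept their call in 4 and 5 of the 8 fits that left out 1 library. Ecscr, a small endothelial surface protein, was too low to be tested, at 0.216, 0.376, 0.162 and 0.198 CPM in P2WT and 0.179, 0, 0 and 0.121 CPM in P2H2WT. Between the deficient groups the differences were 0.85 ± 0.21 for Cdh5, 1.89 ± 0.52 for Emcn, 1.37 ± 0.32 for Plvap and 0.12 ± 0.14 for Pecam1.

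The sinusoid and scavenger receptors Stab1 and Stab2 were higher in P2WT, and Lyve1 was not called. Stab1 (chromosome 14, 31139013 to 31168641, minus strand), a scavenger receptor of sinusoids that macrophages also carry, was at 13.2, 13.6, 14.3 and 12.99 CPM in P2WT and 10.6, 14.9, 13.5 and 23.98 CPM in P2KO. Stab1 in the P2H2 line was at 7.55, 7.17, 7.35 and 7.79 CPM in P2H2WT and 6.88, 6.48, 8.08 and 7.797 CPM in P2H2KO. With little spread between wild-type libraries, a difference of 0.85 ± 0.077 had an adjusted p of 0.00123. Stab2 (chromosome 10, 86841198 to 87008025, minus strand), the hyaluronan scavenger of sinusoidal endothelium, was at 21.5, 16.97, 18.2 and 18.9 CPM in P2WT and 13.02, 14.5, 11.7 and 33.7 CPM in P2KO. Stab2 reached 10.3, 11.5, 7.93 and 7.27 CPM in P2H2WT and 8.91, 7.73, 6.96 and 11.4 CPM in P2H2KO. Both receptors separated the lines, Stab2 by a narrow margin of 11.65 against 11.47 CPM, and the wild types differed in Stab2 by 1.02 ± 0.15 (adjusted p 0.0111). Lyve1, the hyaluronan receptor of lymphatic vessels and of some macrophages, was at 3.04 ± 0.895 CPM in P2WT and 3.79 ± 1.46 CPM in P2H2WT (log2 difference -0.32 ± 0.28, adjusted p 0.732). Macrophage markers, which bear on Stab1 and Lyve1, summed to between 2027 and 2466 CPM in P2WT and between 1867 and 2249 CPM in P2H2WT. Of that list 1 of 17 genes was called between the wild types (Timd4, 0.81 ± 0.14; 1.22% of all genes), with a list median of 0.23. Between the deficient groups 0 were called, with a median of 0.41. At an unadjusted p under 0.05 in edgeR, 11 were higher in P2KO there (5.6% of all genes) and 1 was lower. At that level 13 of 17 were lower in P2H2KO than in P2H2WT and 4 lower in P2KO than in P2WT, with 0 higher in both (2.63% and 3.49% of all genes in either direction). In P2KO against P2H2KO, Stab1 differed by 1.07 ± 0.23 and Stab2 by 1.03 ± 0.34.

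Of the 4 transcription factors, Sox18 was higher in P2WT and Erg was not called. Erg (chromosome 16, 95359169 to 95586593, minus strand), an ETS factor of endothelium that stem and progenitor cells also use, was at 35.9, 29.3, 24.98 and 24.4 CPM in P2WT and 28.97, 23.8, 37.6 and 22.5 CPM in P2KO. Erg was at 25.7, 22.98, 21.2 and 32.3 CPM in P2H2WT and 29.7, 24.5, 34.1 and 34.2 CPM in P2H2KO. Its libraries overlapped between all groups, and the wild types differed by 0.16 ± 0.15 (adjusted p 0.737). Sox18, a factor of early vessel and lymphatic growth, was at 1.81 ± 0.201 CPM in P2WT against 0.544 ± 0.151 CPM in P2H2WT, a difference of 1.71 ± 0.23 (adjusted p 0.00773). Its relatives Sox7 and Sox17 were too low for a test. Sox7 was at 0.0721, 0.150, 0.0404 and 0.198 CPM in P2WT and 0.147, 0.276, 0.198 and 0.269 CPM in P2KO, and at most 0.0715 CPM in the P2H2 line. Sox17 was at 0.0721, 0.0376, 0.0404 and 0.0790 CPM in P2WT and 0.0735, 0.138, 0.118 and 0.499 CPM in P2KO, with 5 of the 8 P2H2 libraries at 0 counts.

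Among the 7 other signalling genes, Robo4 and Adgrf5 were higher in P2WT. Robo4 (chromosome 9, 37401897 to 37415115, plus strand), an endothelial guidance receptor that stabilises vessels and also marks stem cells, was at 2.63, 2.14, 2.14 and 2.804 CPM in P2WT and 1.84, 2.79, 1.98 and 7.21 CPM in P2KO. Robo4 stood at 0.501, 0.717, 0.619 and 0.727 CPM in P2H2WT and 0.908, 0.362, 1.61 and 1.98 CPM in P2H2KO. The wild types differed by 1.92 ± 0.19 (adjusted p 0.00191) with no overlap, whereas P2KO replicates 1 and 6 (1.975 CPM) lay below P2H2KO replicate 17 (1.983 CPM). Adgrf5 (chromosome 17, 43360451 to 43459557, plus strand), an adhesion G protein-coupled receptor of capillaries, was at 4.899, 5.11, 5.25 and 4.78 CPM in P2WT and 4.04, 5.55, 3.59 and 11.2 CPM in P2KO. Adgrf5 reached 1.82, 1.07, 1.12 and 0.969 CPM in P2H2WT and 2.12, 1.09, 2.26 and 3.06 CPM in P2H2KO. It separated the lines, with a wild-type difference of 1.99 ± 0.20 (adjusted p 0.00191). Eng (chromosome 2, 32646595 to 32682669, plus strand), the endoglin co-receptor for TGF-β ligands that stem cells and macrophages carry too, was at 41.0, 36.1, 44.7 and 40.8 CPM in P2WT and 40.4, 40.2, 28.9 and 47.8 CPM in P2KO. Eng in the P2H2 line was at 32.1, 34.4, 35.3 and 29.2 CPM in P2H2WT and 37.7, 34.6, 40.2 and 36.7 CPM in P2H2KO. Its wild-type groups did not overlap, but the difference of 0.31 ± 0.089 was not called by edgeR (adjusted p 0.180), while DESeq2 gave an adjusted p of 0.0493. Adgrl4, an adhesion receptor of growing vessels, averaged 13.4 ± 2.08 CPM in P2WT and 14.6 ± 2.396 CPM in P2H2WT (-0.12), and 13.1 ± 1.93 CPM in P2KO and 16.2 ± 0.854 CPM in P2H2KO. It was the only one of the 33 tested genes with a negative estimate at an unadjusted p under 0.05 between the deficient groups (-0.34 ± 0.11, p 0.0129). The apelin receptor Aplnr averaged 5.71 ± 1.17 and 4.65 ± 1.31 CPM in the wild types (0.29) and the Notch ligand Dll4 0.634 ± 0.166 and 0.377 ± 0.129 CPM (0.74), neither of them called. Robo4, Adgrf5 and Eng differed by 1.47 ± 0.57, 1.49 ± 0.41 and 0.047 ± 0.14 between the deficient groups. Ramp2, which turns the calcitonin receptor-like receptor into an adrenomedullin receptor, was too low to be tested between the wild types, at 0.488 ± 0.225 CPM in P2WT and 0.185 ± 0.0691 CPM in P2H2WT, and 1103 bases of its exons overlap Vps25.

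Of the 8 secreted, matrix and enzyme genes, 4 of 7 tested were higher in P2WT, 3 of them parts of the basement membrane or its enzymes. Hspg2 (chromosome 4, 137468769 to 137570630, plus strand), which encodes perlecan, was at 9.44, 10.7, 9.34 and 9.08 CPM in P2WT and 9.19, 11.6, 12.1 and 30.4 CPM in P2KO. Hspg2 was at 2.15, 1.83, 2.44 and 3.39 CPM in P2H2WT and 1.73, 2.17, 5.53 and 5.14 CPM in P2H2KO. The lines were apart in every library, and the wild types differed by 1.97 ± 0.17 (adjusted p 0.000957). Pxdn (chromosome 12, 29937608 to 30017658, plus strand), the peroxidase that cross-links collagen IV, was at 1.37, 1.73, 1.13 and 1.38 CPM in P2WT and 1.29, 2.28, 2.05 and 4.83 CPM in P2KO. Pxdn stood at 0.286, 0.159, 0.271 and 0.202 CPM in P2H2WT and 0.389, 0.362, 0.682 and 0.586 CPM in P2H2KO. It had the largest wild-type difference of the 32 genes tested, 2.57 ± 0.25 (adjusted p 0.00191), and was also called between the deficient groups when no low-count filter was used. With 8, 4, 7 and 5 counts in P2H2WT, it entered the wild-type test only through P2WT. Nid1, the nidogen that links laminin to collagen IV, averaged 7.55 ± 0.724 CPM in P2WT and 2.74 ± 0.535 CPM in P2H2WT (1.46, called). Gpihbp1, the capillary anchor of lipoprotein lipase, averaged 0.629 ± 0.101 and 0.165 ± 0.0890 CPM (1.91, called), although it kept its call in only 1 of the 8 fits without a library. Vwf (chromosome 6, 125546774 to 125686679, plus strand), the clotting factor that both endothelium and megakaryocytes store, was at 36.8, 19.9, 27.1 and 27.6 CPM in P2WT and 27.5, 25.3, 28.3 and 63.2 CPM in P2KO. Vwf reached 13.2, 21.3, 20.03 and 12.8 CPM in P2H2WT and 33.04, 20.6, 12.5 and 21.2 CPM in P2H2KO. Its ranges overlapped, and its wild-type difference of 0.72 ± 0.21 was not called (adjusted p 0.195). The wild types differed by 0.19 in Myct1, which averaged 1.11 ± 0.179 and 0.981 ± 0.457 CPM, and by 0.065 in the secreted protein Egfl7, which averaged 4.17 ± 0.429 and 3.98 ± 0.676 CPM, neither of them called. Hspg2, Pxdn and Vwf differed by 2.08 ± 0.48, 2.32 ± 0.43 and 0.70 ± 0.36 between the deficient groups. Nos3, the nitric oxide synthase of endothelium, was too low to be tested and shares 1334 exon bases with Atg9b and Gm15587 on the other strand. Egfl7 hosts the endothelial microRNA miR-126a, whose RefSeq sequence on the plus strand at chr2:26591402-26591423 has its seed in capitals.
mmu-miR-126a-3p: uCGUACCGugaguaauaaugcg
The hairpin entry of that microRNA had 0 counts in all 16 libraries, which were made from total RNA for standard sequencing and do not measure mature microRNAs.

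P2KO replicate 9 was the highest of the 16 libraries for 33 of the 37 genes, which was true of 13.5% of all genes. That included all 14 endothelial-defining genes, 10 of the 12 known in blood cells and 9 of the 11 others. The exceptions were Lyve1, highest in P2H2WT replicate 18, Erg, highest in P2KO replicate 6, Sox7, highest in P2KO replicate 5, and Adgrl4, highest in P2H2WT replicate 16. For 23 genes replicate 9 exceeded the median of the other P2KO libraries by more than 2 times (4.2% of all genes), and the ratio had a median of 2.59 over the 37 genes, from 0.534 for Lyve1 to 4.21 for Sox17. The 14 endothelial-defining genes summed to 164 CPM in replicate 9 and to between 57.3 and 77.1 CPM in P2KO replicates 1, 5 and 6, next to 65.2 to 75.7 CPM in P2WT. Replicate 9 also had the highest sums of pericyte and smooth muscle genes (58.8 CPM, against 21.2 to 36.8 in the other libraries), of megakaryocyte genes (734 CPM, against 490.3 to 671) and of B-cell genes (818 CPM, against 231 to 790.5). Its sum of neutrophil genes was the lowest, at 36270 CPM, with up to 92460 CPM in P2H2KO replicate 17. The part of these cell types in the levels of the endothelial genes was not tested.

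**Figure D3:**
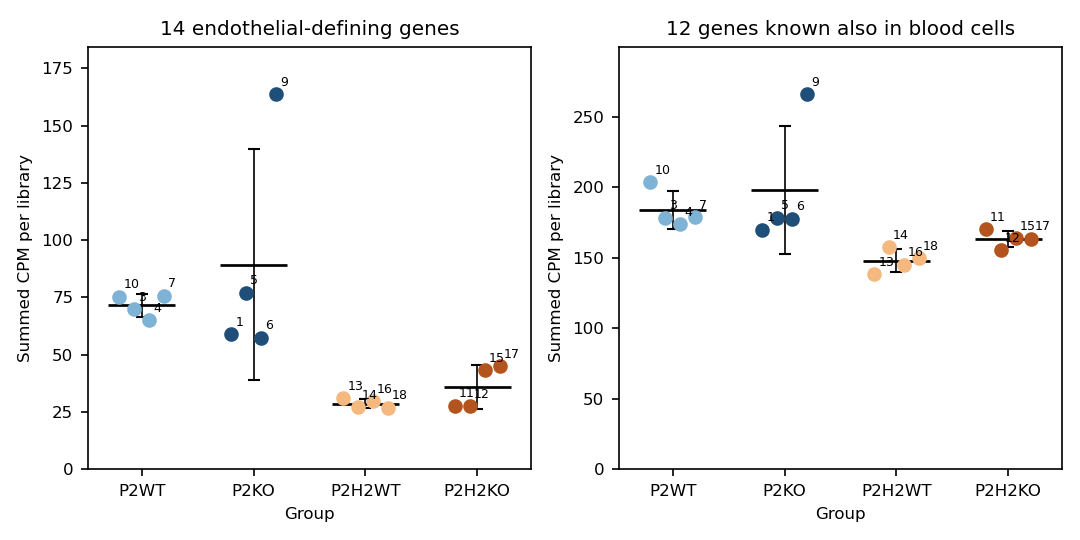
Summed CPM per library of the 14 endothelial-defining genes (left) and of the 12 genes known also in blood cells (right). Points are libraries labelled with their title number, lines are means and bars are ± 1 SD (n = 4). On the left all P2 libraries lie at 57.3 CPM or more and all P2H2 libraries at 44.9 CPM or less, with P2KO replicate 9 at 164 CPM, whereas on the right the groups lie closer together.

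In the P2 line, none of the genes was called between the libraries labelled as lacking PHD2 and their wild types. Of 33 tested in P2KO against P2WT, 0 were called by edgeR and 0 by DESeq2 (0.0437% of all 13734 genes called by edgeR), and 3 had an unadjusted p under 0.05 (3.49% of all genes, 1.49% as higher in P2KO). Those were Pxdn (0.90 ± 0.38, p 0.0392), Egfl7 (0.33 ± 0.14, p 0.0424) and Myct1 (0.62 ± 0.27, p 0.0475), all with an adjusted p of 1. That count was 12 of 33 with the suffix as a covariate (458 of 13734 genes). Replicate 9 is the only P2KO library with f, so within P2KO the suffix and that library cannot be told apart in that fit. The count was between 0 and 6 when 1 library was left out, with 296 to 1702 of all genes at that level. The estimates were positive for 28 of the 33 (57.8% of all genes), with a median of 0.45, but without P2KO replicate 9 they were positive for 15, with a median of -0.03. The largest estimate was that of Ramp2 (0.99 ± 0.49), which was 0.42 ± 0.38 without replicate 9. Kdr went from 0.42 ± 0.39 to -0.22 ± 0.14, Tek from 0.46 ± 0.43 to -0.26 ± 0.15 and Flt4 from 0.46 ± 0.41 to -0.19 ± 0.18. Stab2 was at -0.045 ± 0.31 with all libraries and at -0.53 ± 0.11 without replicate 9, with an unadjusted p of 0.00118 and an adjusted p of 0.578. The junction gene Cdh5 (0.32 ± 0.21) was at 0.088 ± 0.15 without that library, and Pecam1 (-0.0086 ± 0.15) at -0.17 ± 0.10. For none of the 37 genes did all P2KO libraries lie above all P2WT libraries (0.859% of all genes).

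With PHD2 and HIF2 both labelled as deleted, again none of the genes was called. Of 29 tested in P2H2KO against P2H2WT, 0 were called by edgeR and 0 by DESeq2 (0.0744% of all 13435 genes called by edgeR), and 4 had an unadjusted p under 0.05 (2.63% of all genes, 1.62% as higher in P2H2KO). These were Tek (1.16 ± 0.36, p 0.00968), Adgrf5 (0.76 ± 0.33, p 0.0434), Esam (0.66 ± 0.29, p 0.0448) and Eng (0.19 ± 0.082, p 0.0460), each higher in P2H2KO and each with an adjusted p of 0.9999. The count of 4 was 1 with the suffix as a covariate (417 of 13435 genes). When 1 library was left out it was between 1 (without P2H2KO replicate 17) and 7 (without replicate 11 or 12). Over all genes, 283 to 501 were at that level in those fits. The estimates were positive for 25 of the 29 (50.5% of all genes) with a median of 0.34, and Pxdn was the only gene of the 37 whose groups did not overlap (0.901% of all genes). Kdr differed by 0.63 ± 0.52, Flt4 by 0.89 ± 0.47, Cdh5 by 0.30 ± 0.14 and Stab1 by -0.030 ± 0.10. The P2H2KO libraries were themselves uneven. Replicates 15 and 17, both with the suffix f, lay above replicates 11 and 12, both with m, for 26 of the 37 genes (31.8% of all genes). With the suffix as a covariate the median of the 29 genes was 0.20. In P2WT, the f libraries 10 and 7 lay above 3 and 4 for 13 genes (24.2% of all genes).

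**Figure D4:**
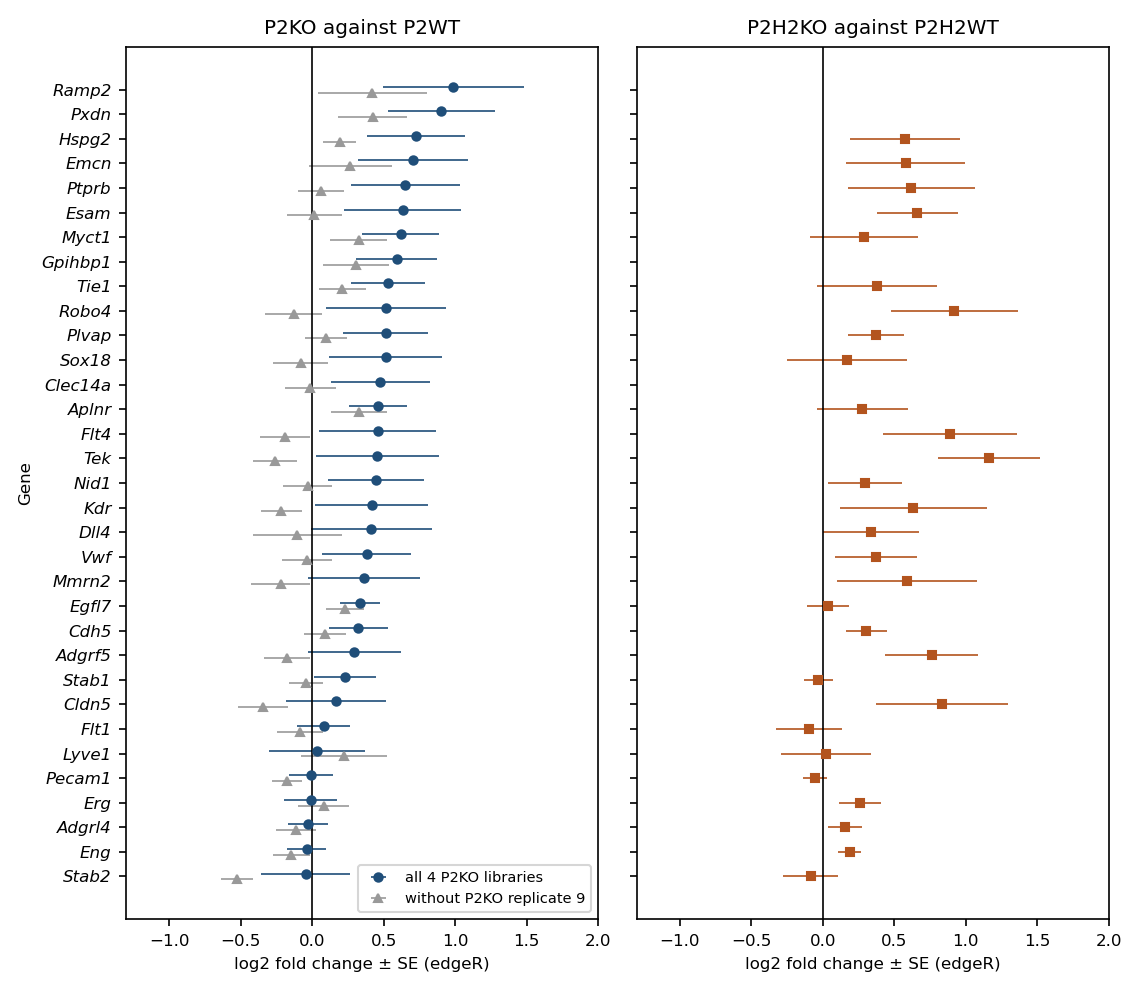
Log2 fold change between KO and wild type with bars of ± 1 SE from edgeR for each tested gene, in the P2 line (left; blue circles with all 4 P2KO libraries, grey triangles without P2KO replicate 9) and in the P2H2 line (right). None of the points is called. On the left the blue circles have a median of 0.45 and the grey triangles of -0.03, and on the right the median is 0.34.

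No difference between the effects of the 2 deficiencies was called. That difference was tested directly in a fit of all 16 libraries, and 0 of 33 genes were called by edgeR or by DESeq2 (0% of all 14080 genes), with 0 genes at an unadjusted p under 0.05 (1.51% of all genes, 0.788% with the larger effect in the P2 line). The estimate was positive for 18 genes (50.4% of all genes). The median difference was 0.0082, from -0.72 for Tek to 0.33 for Sox18, and with the suffix as a covariate it was 0.26, with 25 of 33 positive (52.2% of all genes). The errors were wide, at -0.72 ± 0.62 for Tek, -0.23 ± 0.70 for Kdr and 0.0082 ± 0.27 for Cdh5. Without P2KO replicate 9 the median was -0.40, and 4 genes had an unadjusted p under 0.05 (1.79% of all genes), all with the smaller effect in the P2 line and an adjusted p of 0.9996. Tek was at -1.44 ± 0.40 in that fit, Cldn5 at -1.19 ± 0.54, Adgrf5 at -0.95 ± 0.38 and Eng at -0.35 ± 0.16.

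Ligands and partners of these receptors formed a further list. Of 23 such genes, 1 of 18 tested was called between the wild types, Bmp6 (1.08 ± 0.21, adjusted p 0.0427), and the list had a median of 0.16, with 1.22% of all genes called. Vegfa, the ligand of Kdr and Flt1, was at 17.03 ± 0.558, 19.2 ± 2.47, 16.4 ± 1.57 and 18.8 ± 1.29 CPM in P2WT, P2KO, P2H2WT and P2H2KO. Angpt1, the agonist of Tek, was at 8.84 ± 1.83, 9.204 ± 4.05, 7.88 ± 2.19 and 7.86 ± 2.33 CPM. Notch4, the Notch receptor of endothelium, was at 1.23 ± 0.215 CPM in P2WT and 0.518 ± 0.186 CPM in P2H2WT (1.23 ± 0.29, adjusted p 0.0868). Between the deficient groups 2 of 19 were called, with 0.279% of all genes called, namely the guidance ligand Slit2 (2.03 ± 0.29, adjusted p 0.0344) and the guidance receptor Unc5b (1.94 ± 0.28, adjusted p 0.0361). The hormone Apela and the ligand Gdf2 had 0 counts in all libraries. Of 45 further genes of endothelium, many of them shared with blood cells, 6 of 38 tested were called between the wild types (1.22% of all genes). The list had a median of 0.28 there, and 27 of 38 were positive (46.6% of all genes). Between the deficient groups 0 of 38 were called (0.279% of all genes), and 9 had an unadjusted p under 0.05 (10.7% of all genes). Sums over the 45 genes were close, at a mean of 1542 CPM in P2WT and 1538 CPM in P2H2WT. The 3 with the smallest p between the wild types were the selectin Sele (2.95 ± 0.40), the venous factor Nr2f2 (2.04 ± 0.28) and Cyyr1 (2.09 ± 0.32), all higher in P2WT.

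Markers of marrow stroma, the mesenchymal cells and bone cells that surround sinusoids, differed between the lines together with the endothelial genes. Summed over 23 genes they reached 966.7 to 1867 CPM in P2WT and 957.7 to 1605 CPM in P2KO, against 572 to 693 CPM in P2H2WT and 479 to 579.6 CPM in P2H2KO. Between the wild types 5 of 22 tested were called, all higher in P2WT, where 1.22% of all genes were called. Their list had a median of 1.10, against -0.012 for all genes. The calls were led by the leptin receptor Lepr (1.10 ± 0.18), Pdgfra (1.37 ± 0.22) and Sparc (1.74 ± 0.30). Between the deficient groups 4 of 22 were called, where 0.279% of all genes were called. The median there was 1.24, against -0.023 for all genes. Those calls were led by Sparc (2.14 ± 0.28), Col1a2 (2.78 ± 0.38) and Dmp1 (3.71 ± 0.51). Of 6 pericyte and smooth muscle genes tested, Abcc9 (1.73 ± 0.19) and Kcnj8 (2.63 ± 0.47) were called between the wild types and 0 between the deficient groups, next to the same 1.22% and 0.279% of all genes. The stroma list, too, was made after genes that differ between these wild types had been seen. No gene of the remaining 6 lists was called in either comparison of the lines. Their wild-type medians were 0.51 for 14 megakaryocyte genes, -0.24 for 11 erythroid genes, 0.063 for 11 B-cell genes, -0.047 for 11 T and NK cell genes, -0.081 for 11 stem and progenitor genes and -0.17 for 17 neutrophil genes. In P2KO against P2H2KO these medians were 0.59, 0.089, 0.30, -0.30, -0.19 and -0.40 in the same order. The erythroid sum, from 25370 to 51530 CPM, was of the same order as the neutrophil sum. The part of stroma or of any other cell type in the endothelial values was not tested.

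**Figure D5:**
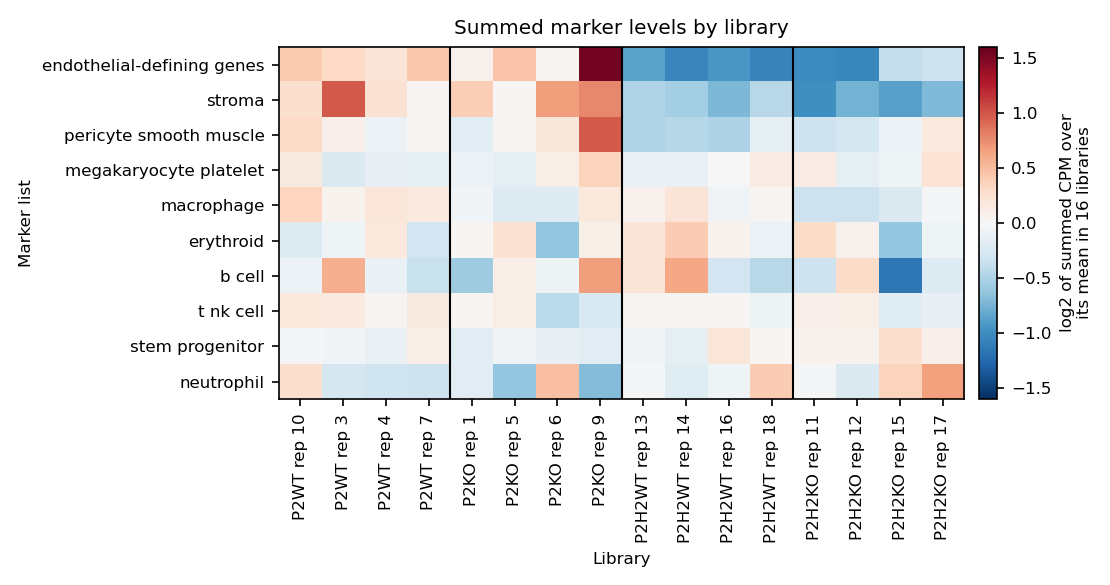
Summed CPM of each marker list in each library as the log2 of its ratio to the mean over the 16 libraries, with red above and blue below. The rows of the 14 endothelial-defining genes and of stroma are red in the P2 line and blue in the P2H2 line, and P2KO replicate 9 is highest for the endothelial, pericyte, megakaryocyte and B-cell rows and lowest for neutrophil genes.

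Cdh5 was used as the reference for likeness in pattern over the 16 libraries. By Spearman coefficient of log2(CPM + 0.1), the 10 highest outside the 37 genes were Islr (0.965), Fstl1 (0.941), Nfib (0.941), Kcnj8 (0.935), Fbn1 (0.935), Ltbp2 (0.932), Plxdc2 (0.929), Adamts9 (0.926), Pdgfrb (0.924) and Rai14 (0.924). Among the 37 genes, those most like Cdh5 were Esam (0.941), Pxdn (0.941), Plvap (0.932), Nid1 (0.915) and Mmrn2 (0.912), and the least like it were Erg (-0.0382), Adgrl4 (-0.347) and Lyve1 (-0.406). The difference between the lines enters all of these coefficients. Within the 8 libraries of the P2 line Plvap (0.976), Nid1 (0.905) and Flt1 (0.881) were most like Cdh5, and within the 8 of the P2H2 line Pxdn (0.786) and Esam (0.69). Kdr was at 0.738 in the P2 line and 0.333 in the P2H2 line, and Stab2 at 0.476 and -0.476. These coefficients describe libraries that share their preparation and cell content, and no test was made of them.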

How the data were processed

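RNA was sequenced from sorted neutrophils in 16 libraries. The authors deposited 2 tables of raw counts per Ensembl gene, 1 per line, per the file headers, and HTSeq and the mm10 build are named in the submitters' processing notes. The aligner, annotation release, versions and strand setting are not given in the sources used here, so reads of overlapping or antisense genes cannot be told apart. Symbols, coordinates and exon lengths came from GENCODE M21 (GRCm38). Of 49585 identifiers 49326 had a name, and the others held 0.00714% of counts.

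Groups came from the titles and descriptions. Genes were filtered with filterByExpr and scaled by TMM in edgeR 4.0.16 (R 4.3.3), and tested two-sided with robust quasi-likelihood fits (glmQLFit, glmQLFTest), with Benjamini-Hochberg adjustment over all genes tested and a threshold of 0.05. P2KO was set against P2WT, P2H2KO against P2H2WT, P2WT against P2H2WT and P2KO against P2H2KO in fits of their own 8 libraries, and the difference of the effects in a fit of 16. CPM are TMM-scaled, and per-kb levels divide by the union of exons. The procedure was tested on simulated counts. Alternatives were RLE factors, DESeq2 1.42.0, no low-count filter, a floor of 10 counts in each library, the suffix as covariate, a fit of all 16 libraries and leaving out each library.

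Values per library were given for genes called in a comparison (up to 8 per comparison by adjusted p), for Cdh5, Kdr, Emcn, Tek, Flt4, Pecam1, Eng and Stab1, and for the gene of highest mean CPM in each role group. Further genes with a value of their own were chosen after their values were seen. The genes and lists were chosen with earlier results of these data known. Promoter windows and the microRNA came from RefSeq (GRCm38.p6), and the 16 genes without a window were not searched. Depth limits precision for genes near 3 counts.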

Additional observations from a re-analysis of the deposited data

Results flagged for a closer look

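In 14 of 156 groups of 4 libraries checked (the 37 genes and 2 sums in 4 groups each), 1 library stood far from the other 3 by Dixon's criterion, which chance alone meets in about 1 of 20 groups. P2KO replicate 9 accounted for 12 of the 14.

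Within P2KO, replicate 9 was apart and above for Kdr (21.2 CPM), Tek (8.44 CPM), Ptprb (10.9 CPM), Esam (6.14 CPM), Cldn5 (3.91 CPM), Clec14a (3.84 CPM), Stab2 (33.7 CPM), Sox17 (0.499 CPM), Ramp2 (1.92 CPM), Vwf (63.2 CPM) and Hspg2 (30.4 CPM), and for the sum of all 37 genes (526 CPM against 268.8 to 305.6 CPM). It is the only P2KO library whose title ends in f, so the suffix and this library cannot be told apart within P2KO. The 2 f libraries of P2WT summed to 326 and 300.1 CPM, next to 294 and 279 CPM in the m libraries.

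In P2H2KO, replicate 15 was apart for Sox17 at 0.0718 CPM where the other 3 libraries had 0 counts, a level below the 3-count limit. Replicate 17 was apart for Nos3 at 0.361 CPM, against 0.0403 to 0.0718 CPM in the others.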

How the results depend on the processing

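No paired analysis was possible because the groups compared share no replicate numbers.

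Between the wild types 20 of the 37 genes were called with RLE factors, with no filter and with the suffix as covariate and 22 with DESeq2, 16 of 27 tested with at least 10 counts in every library, where the median was 1.03, but 3 in the fit of all 16 libraries (Ptprb, Pxdn and Adgrf5), whose spread includes that of P2KO and P2H2KO. Leaving out 1 library left 16 to 19 called. Between the deficient groups 0 became 1 with no filter, 11 with DESeq2, 19 with the suffix covariate and 10 in the fit of 16, and stayed 0 without any 1 library. For KO against wild type in either line, and for the difference of the 2 KO effects, 0 of the endothelial genes were called under each alternative run. The median in P2KO against P2WT ranged from -0.031 (without P2KO replicate 9) to 0.61 when 1 library was left out.

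Summed over the 14 endothelial-defining genes alone, the group means were 89.2 CPM (P2KO), 71.5 CPM (P2WT), 35.8 CPM (P2H2KO) and 28.6 CPM (P2H2WT). With the suffix covariate the estimate turned for Pecam1 (0.048) and Stab2 (0.022) in P2KO against P2WT and for Tie1 (0.067) between the wild types. Leaving out 1 library turned uncalled estimates in P2KO against P2WT, over ranges of -0.22 to 0.61 for Kdr, -0.26 to 0.67 for Tek, -0.19 to 0.67 for Flt4, -0.17 to 0.088 for Pecam1, -0.15 to 0.086 for Eng, -0.046 to 0.38 for Stab1, -0.086 to 0.24 for Flt1, -0.53 to 0.12 for Stab2, -0.18 to 0.12 for Erg and -0.034 to 0.55 for Vwf. In P2H2KO against P2H2WT the ranges were -0.079 to 0.024 for Stab1, -0.24 to 0.16 for Flt1 and -0.23 to 0.032 for Stab2. Between the wild types Tie1 ranged from -0.32 to 0.41, and between the deficient groups Pecam1 from -0.025 to 0.21, Eng from -0.044 to 0.20 and Tie1 from -0.29 to 0.16. The causes were not tested.

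Over all genes, the calls of P2KO against P2WT were 6 by edgeR, 23 by DESeq2 and 10 in the fit of 16. In P2H2KO against P2H2WT they were 10, 42 by DESeq2 and 6 without P2H2WT replicate 13. Between the wild types they were 166, 419 by DESeq2, 87 with at least 10 counts, 32 in the fit of 16 and 76 to 167 without 1 library. Between the deficient groups they were 38, 255 by DESeq2, 150 with the suffix covariate, 130 in the fit of 16, 63 with no filter, 12 with at least 10 counts and 11 to 26 without 1 library.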
